A study of Homo sapiens with 6 samples.

Results

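Amino acid transporters of the plasma membrane, with the cystine transporter SLC7A11 among them, were examined in SK-N-AS cells, an established human neuroblastoma cell line, with and without induction of the oncogene MYCN. The set holds 10 genes of the 60651 gene identifiers counted: SLC7A11, SLC3A2, SLC7A5, SLC7A1, SLC7A3, SLC1A4, SLC1A5, SLC38A1, SLC38A2 and SLC6A9. They were chosen by their role in transport and with the fold changes of this same comparison known. Their differences between the conditions are therefore given as a description, with no p-value, and nothing is read from how many of them passed the test run across all genes. SLC7A11-AS1, an antisense gene that overlaps SLC7A11, is described beside it.

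Both conditions used SK-N-AS cells that stably carry an added MYCN gene controlled by the tetracycline repressor (TR), kept as single clones under the antibiotics G418 and blasticidin. The 3 libraries titled ETOH are the control cells, and the 3 titled Tet come from cells that received tetracycline to induce MYCN. The sample titles give the time as 120 h and the treatment description as 5 days. The repressor system and the introduced gene are present in the control cells too, and cells given tetracycline without the introduced gene were not analysed here, so MYCN and tetracycline cannot be told apart as the source of a difference. The paper describes its replicates as biologically independent, and the labels do not say how the cultures were separated.

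A cell takes up most amino acids through membrane proteins of the solute carrier (SLC) families. Some are exchangers, which import one amino acid while releasing another: SLC7A11 imports cystine for glutamate, and SLC7A5 imports large neutral amino acids such as leucine. Both work only when joined by a disulfide bond to SLC3A2, the heavy chain that carries them to the cell surface. Many transporter genes are textbook targets of ATF4, the transcription factor of the amino acid response, and MYC proteins are known to raise several of them, glutamine carriers included. Cystine supplies the cysteine for glutathione, and neuroblastoma cells with high MYCN are known for a strong need of cysteine and glutamine.

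Ribosomal RNA was removed from total RNA before sequencing, and the libraries held between 64500589 and 102249336 counted read pairs. MYCN was measured at 30.3, 35.5 and 32.4 counts-per-million (CPM, scaled by the TMM method) in control replicates 1 to 3 and at 211, 221 and 199 CPM in the MYCN-induced ones, a log2 fold change of 2.68 (SE 0.08, edgeR adjusted p = 4.15e-05). MYCN-induced replicate 3 had the lowest MYCN of the induced libraries, and it stood apart. On the leading principal component (44.8% of the variance) its score was 69.1, where induced replicates 1 and 2 scored 14.4 and 13.1 and the controls from -40.3 to -25.9. The fold changes of the transporters are therefore also given without it. HAND2, a marker of the adrenergic neuroblastoma state, lay between 349 and 559 CPM. CD44, a marker of the mesenchymal state, had 0 counts in all 6 libraries. It was the only 1 of the 10 mesenchymal markers at 0 in every library, and VIM, another of them, lay between 360 and 475 CPM. How these values compare with other cultures of the labelled line was not analysed here. The 10 mesenchymal markers summed to between 585 and 595 CPM in the controls and between 658 and 706 CPM in the induced libraries. Most of this sum was VIM, with 372, 360 and 361 CPM in the controls and 447, 420 and 475 CPM after induction. Of the 9 markers tested, 7 had a log2 fold change above 0, and TWIST1 and FN1 had one below 0. The 9 markers of blood, epithelial, endothelial and liver cells together stayed at or under 3.06 CPM in each library. Of the 9 mesenchymal markers tested, 0 were called higher after induction by edgeR, where 5 were higher at an unadjusted p under 0.05 (8.13% of all genes), and FN1 was called lower. Without MYCN-induced replicate 3, 5 of the 9 were called higher (3.68% of all genes tested). Whether cells of another state had a part in the transporter values was not tested.

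To show what stands at the starts of these genes, RefSeq promoter windows on build GRCh38.p14, from 250 bases before to 50 bases after a transcript start, were searched for letters known from binding sites of the factors named above. The table held 14 windows for 8 of the 10 genes, all but SLC7A11 and SLC7A3. The letters searched on both strands were TGATGNAA, the core of the C/EBP-ATF response element that ATF4 binds, and CACGTG, the E-box that MYC proteins bind. The first was found in 5 of the 14 windows, each of another gene, and in 3.62% of all 35116 windows of that length. The following stretches are printed 5′ to 3′ on the strand of the gene with the match in capitals. In SLC3A2 and SLC1A4 the letters lie on the other strand and appear as their reverse complement. The match begins 37 bases after the start in SLC3A2 and 7 after it in SLC7A1, and 7, 97 and 4 bases before it in SLC1A4, SLC1A5 and SLC38A1. A start is that of a RefSeq transcript and can lie inside the gene. This was so for the matches in SLC3A2, SLC1A4, SLC1A5 and SLC38A1, whereas that in SLC7A1 lies at the annotated gene start. The windows over the annotated starts of SLC3A2, SLC1A4 and SLC1A5 did not hold these letters.
SLC3A2, chr11:62881725-62881748, plus strand: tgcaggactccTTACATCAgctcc
SLC7A1, chr13:29595663-29595692, minus strand: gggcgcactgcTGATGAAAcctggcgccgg
SLC1A4, chr2:64989381-64989410, plus strand: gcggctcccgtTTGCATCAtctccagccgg
SLC1A5, chr19:46784893-46784922, minus strand: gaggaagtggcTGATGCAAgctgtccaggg
SLC38A1, chr12:46266502-46266531, minus strand: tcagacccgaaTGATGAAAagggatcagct

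The E-box was found in 2 of the 14 windows, in 2 genes, and in 7.26% of all windows. It begins 130 bases before the start in SLC7A5 and 50 before it in SLC1A5. SLC1A5 held both kinds of match, in windows of different transcript starts inside the gene. The window over its annotated gene start held neither.
SLC7A5, chr16:87869621-87869648, minus strand: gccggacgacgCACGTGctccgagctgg
SLC1A5, chr19:46787327-46787354, minus strand: gcgggagtggtCACGTGgacaggacggg
These letters describe the windows and do not show that a factor was bound in SK-N-AS cells. Binding was not measured here.

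SLC7A11 RNA was higher in each MYCN-induced library than in each control, and it had the largest log2 fold change of the 10 genes. SLC7A11 (ENSG00000151012.13, chr4:138164097-138242349, minus strand, GRCh38) encodes xCT, the cystine-importing subunit of the cystine and glutamate exchanger. Its level was 16.8, 16.1 and 14.9 CPM in control replicates 1, 2 and 3, a mean of 15.9 ± 0.96 (SD, n = 3). The MYCN-induced replicates had 86.9, 46.3 and 414 CPM, a mean of 182 ± 201 (SD, n = 3). The controls lay within 1.13-fold of each other, whereas the induced libraries spanned 8.94-fold, so the size of the difference was set largely by which induced library was read. Relative to the control mean, SLC7A11 was 5.46-fold higher in replicate 1, 2.91-fold higher in replicate 2 and 26.0-fold higher in replicate 3. The fitted log2 fold change was 3.52 (SE 0.75), and 2.07 (SE 0.23) without MYCN-induced replicate 3. In bulk RNA, a change in the share of cells that express a gene and a change in RNA per cell cannot be told apart.

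The antisense gene followed SLC7A11 closely. SLC7A11-AS1 (ENSG00000250033.5, chr4:138057464-138178177, plus strand), a long noncoding RNA gene, was at 2.69, 2.45 and 2.53 CPM in the controls and at 15.2, 8.53 and 63.5 CPM in the induced libraries, without overlap. Its log2 fold change was 3.51 (SE 0.70), and 2.22 (SE 0.23) without replicate 3. The 2 genes share 865 exon bases on opposite strands, which is 8.97% of the SLC7A11 exon length and 14.04% of that of SLC7A11-AS1. SLC7A11-AS1 counts came to 16.0%, 15.2% and 17.0% of the SLC7A11 counts in the controls and to 17.5%, 18.4% and 15.4% after induction. The counting header gives no strand option, so read pairs of the antisense RNA and of SLC7A11 cannot be told apart where their exons overlap.

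**Figure D1:**
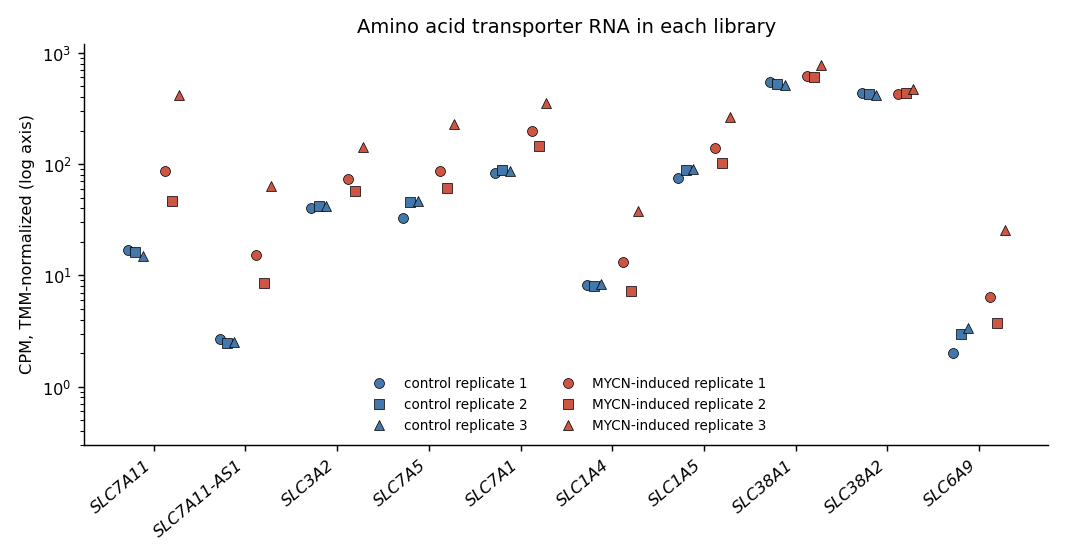
TMM-normalized CPM on a log axis for 9 transporters and SLC7A11-AS1, with 1 point per library (blue, control; red, MYCN-induced; the marker shape gives the replicate number); SLC7A3 is left out because it had 1 count in all. The red triangle, replicate 3, is the highest point of each gene, and for SLC1A4 and SLC38A2 the red points do not all lie above the blue ones.

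SLC3A2 and SLC7A5, which together form the leucine transporter, were also higher in the induced libraries, by less than SLC7A11. SLC3A2 (ENSG00000168003.18, chr11:62856004-62888880, plus strand), the CD98 heavy chain, had 39.9, 42.1 and 42.4 CPM in the controls and 72.8, 57.6 and 142 CPM after induction. The groups did not overlap, and the log2 fold change was 1.13 (SE 0.29), or 0.66 (SE 0.10) without MYCN-induced replicate 3. SLC7A5 (ENSG00000103257.9, chr16:87830023-87869507, minus strand), known as LAT1, had 32.4, 45.2 and 46.2 CPM in the controls and 87.0, 61.5 and 227 CPM in the induced replicates. Its lowest induced value exceeded its highest control value, with a log2 fold change of 1.6 (SE 0.44), or 0.85 (SE 0.19) without replicate 3. SLC7A5 shares 271 exon bases (5.69% of its exon length) with ENSG00000260466 on the opposite strand, a gene with a log2 fold change of 1.61 (SE 0.45). Its pseudogenes SLC7A5P1 and SLC7A5P2 reached at most 2.22 CPM.

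SLC7A11 made up a larger share of the light chains that can join SLC3A2 in the induced libraries, and the total of the light chains was higher there. Levels of different genes were compared as transcripts-per-million (TPM), which divides by exon length, over the 6 light chains SLC7A5, SLC7A6, SLC7A7, SLC7A8, SLC7A10 and SLC7A11. SLC7A11 accounted for 12.6%, 10.4% and 9.63% of the light chain TPM in control replicates 1 to 3. In the MYCN-induced replicates its share was 27.4%, 20.8% and 44.4%, each above every control value. SLC7A5 held between 49.2% and 60.5% in the controls and between 49.5% and 56.1% after induction, ranges that overlap. The share of SLC7A6, an arginine and leucine exchanger whose own log2 fold change was -0.03 (SE 0.09), was 24.9%, 19.4% and 18.0% in the controls and 9.81%, 12.7% and 3.19% in the induced replicates.

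The light chain total per heavy chain was higher in each induced library than in each control. The ratio of summed light chain TPM to SLC3A2 TPM was 2.22, 2.43 and 2.42 in the controls and 2.89, 2.55 and 4.35 after induction. For SLC7A11 alone, the TPM ratio to SLC3A2 was 0.279, 0.253 and 0.233 in the controls and 0.791, 0.532 and 1.94 in the induced replicates. SLC7A11 RNA thus exceeded SLC3A2 RNA in replicate 3 only, among the 6 libraries. These ratios are of RNA over the union of annotated exons, and protein was not analysed here.

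**Figure D2:**
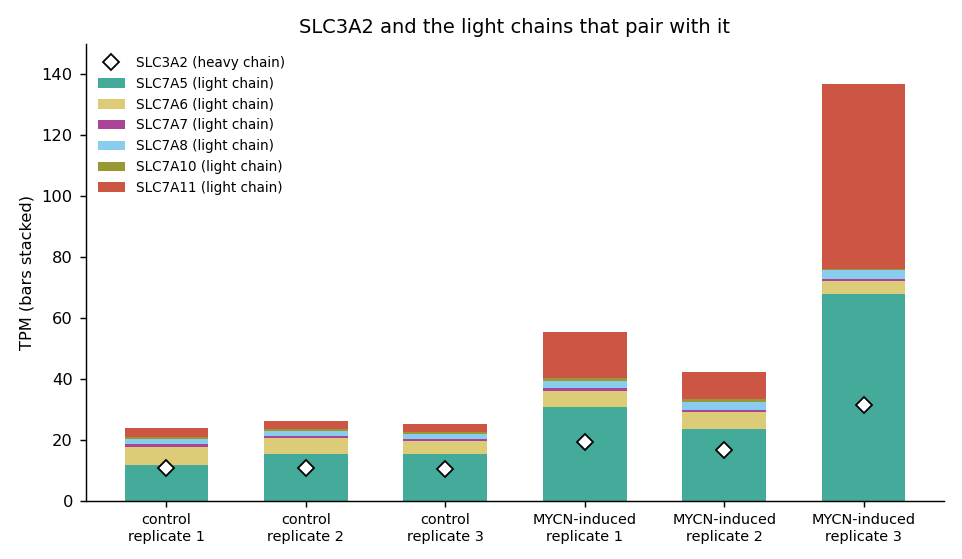
Stacked bars give the TPM of the 6 light chains in each library, and the white diamond gives the TPM of the heavy chain SLC3A2. The summed light chains lie between 24.0 and 26.2 TPM in the controls and reach 55.3, 42.2 and 137 TPM in MYCN-induced replicates 1, 2 and 3, where the red SLC7A11 part is 15.2, 8.79 and 60.9 TPM.

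SLC7A1 was higher after induction with less spread than SLC7A11. SLC7A1 (ENSG00000139514.13, chr13:29509414-29595688, minus strand), the main carrier of arginine and lysine, stood at 83.2, 88.3 and 86.1 CPM in the controls and at 198, 147 and 355 CPM in the induced replicates. The lowest induced library was 1.71-fold above the control mean and the highest 4.14-fold. Its log2 fold change was 1.44 (SE 0.28), and 1.01 (SE 0.12) without replicate 3. SLC7A3 (ENSG00000165349.12, chrX:70925579-70931125, minus strand), another arginine and lysine carrier, had 0 counts in 5 libraries and 1 count in MYCN-induced replicate 3, and was too low to test.

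The neutral amino acid exchangers SLC1A5 and SLC1A4 differed in how far they separated the conditions. SLC1A5 (ENSG00000105281.12, chr19:46774883-46788594, minus strand), known as ASCT2 and a carrier of glutamine, had 75.2, 88.5 and 89.5 CPM in the controls and 139, 103 and 264 CPM after induction, without overlap. The log2 fold change of SLC1A5 was 1.0 (SE 0.30), and 0.53 (SE 0.14) without replicate 3. It shares 780 exon bases, 23.41% of its exon length, with ENSG00000275719 on the opposite strand, so its counts are uncertain where the exons overlap. That share is of length and not of counts. The log2 fold change of ENSG00000275719 was 1.08 (SE 0.37). SLC1A4 (ENSG00000115902.11, chr2:64988477-65023865, plus strand), which carries alanine, serine and cysteine, had 8.13, 8.03 and 8.34 CPM in the controls and 13.3, 7.25 and 38.0 CPM in the induced replicates. MYCN-induced replicate 2 lay below all controls, and the log2 fold change of 1.25 (SE 0.52) became 0.33 (SE 0.23) without replicate 3.

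SLC38A1 and SLC38A2, sodium-coupled carriers that load cells with glutamine and other small neutral amino acids, had the highest levels and the smallest differences. SLC38A1 (ENSG00000111371.16, chr12:46183063-46270017, minus strand) had 542, 523 and 508 CPM in the controls and 622, 612 and 776 CPM in the induced libraries. The 2 groups did not overlap for SLC38A1, whose log2 fold change was 0.35 (SE 0.10), or 0.24 (SE 0.05) without replicate 3. SLC38A2 (ENSG00000134294.14, chr12:46358188-46372773, minus strand) had 436, 430.2 and 422 CPM in the controls and 430.0, 433 and 477 CPM after induction. Its groups overlapped and its log2 fold change was 0.06 (SE 0.07), or 0.02 (SE 0.04) without replicate 3.

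SLC6A9, the glycine transporter GlyT1, had the second-largest log2 fold change among the members and a low level. SLC6A9 (ENSG00000196517.13, chr1:43991500-44031467, minus strand) had 1.99, 2.96 and 3.34 CPM in the controls and 6.35, 3.72 and 25.3 CPM in the induced replicates. The values did not overlap, although replicate 2 was only 1.35-fold above the control mean. Its log2 fold change was 2.10 (SE 0.66), and 0.86 (SE 0.29) without replicate 3. It shares 413 exon bases with CCDC24 on the opposite strand, a gene whose own log2 fold change was 0.02 (SE 0.23).

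All 9 transporters with enough counts had a log2 fold change above 0, from 0.06 to 3.52. Their median log2 fold change was 1.25 over all libraries and 0.66 without MYCN-induced replicate 3, against a median of 0.00 over all 29086 genes tested in the first case. Relative to the control mean, the median of the 9 genes on the log2 scale was 0.81 in MYCN-induced replicate 1, 0.46 in replicate 2 and 2.05 in replicate 3. By CPM, all 9 were highest in replicate 3. Of them, 8 had the order replicate 3, then 1, then 2, which SLC38A2 did not. That order was found in 22.7% of all genes tested, and MYCN itself had the order 2, 1, 3. By TPM, SLC38A1 was highest in MYCN-induced replicate 2 (112 TPM, beside 110.0 in replicate 3). Among the induced libraries SLC38A2 was then lowest in replicate 3, at 104 TPM beside 111 and 122 in replicates 1 and 2. Read pairs of the members made up 0.127%, 0.126% and 0.122% of all counted pairs in the controls and 0.167%, 0.151% and 0.253% in the induced replicates.

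Of these 9 genes, edgeR's quasi-likelihood test at an adjusted p under 0.05 called SLC7A11 and SLC7A1 higher and 0 lower, where it called 1.02% of all genes tested higher and 2.38% lower. At an unadjusted p under 0.05, 8 were higher and 0 lower, beside 8.13% and 10.6% of all genes. DESeq2 called 5 higher and 0 lower, beside 3.11% and 4.12% of all genes. The induced values lay entirely above the control values for 7 of the 9, as they did for 11.5% of all genes. Without replicate 3, edgeR called 5 of the 9 higher (SLC7A11, SLC3A2, SLC7A5, SLC7A1 and SLC38A1), where 3.68% of the genes tested were called higher. Since the members were selected on this comparison, these counts describe them and are no evidence about transporters in general. Without any 1 of the 3 control libraries, or without MYCN-induced replicate 1, the edgeR test called 0 of the 9.

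**Figure D3:**
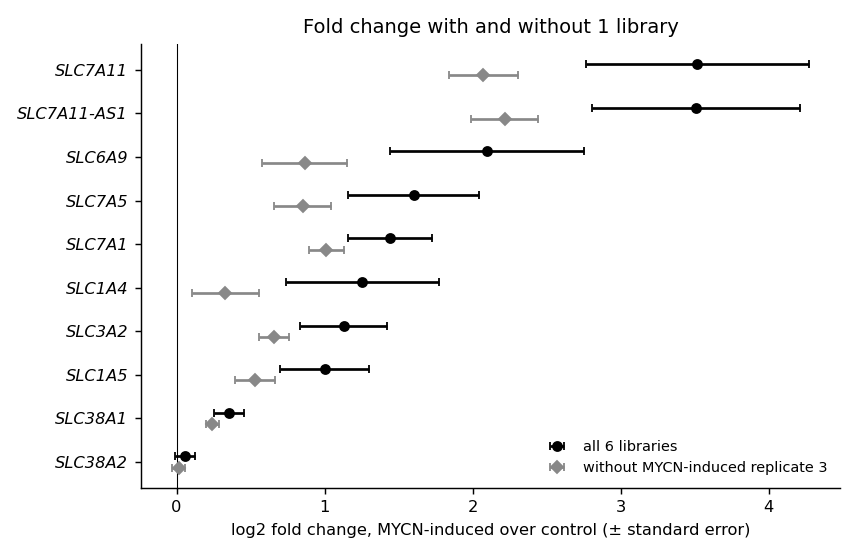
Points give the log2 fold change of each gene, MYCN-induced over control, with bars of 1 standard error, from all 6 libraries (black circles) and without MYCN-induced replicate 3 (grey diamonds). SLC7A11 goes from 3.52 to 2.07 and SLC1A4 from 1.25 to 0.33, and the points of all 10 genes shown stay above 0.

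Per transcript length, the controls were led by the glutamine carriers and not by SLC7A11. Control mean TPM ± SD (n = 3) was 108 ± 7.31 for SLC38A2, 86.1 ± 7.12 for SLC38A1 and 41.5 ± 2.16 for SLC1A5. SLC7A1 followed at 18.3 ± 0.70, SLC7A5 at 14.2 ± 2.06 and SLC3A2 at 10.6 ± 0.24. The lowest were SLC7A11 at 2.71 ± 0.30, SLC1A4 at 1.93 ± 0.08, SLC6A9 at 0.857 ± 0.18 and SLC7A3 at 0 TPM. No neighbours in this order overlapped among the control libraries.

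After induction that order was blurred by the spread between libraries. SLC7A11 reached 15.2, 8.79 and 60.9 TPM, and its range overlapped those of SLC7A5 (30.7, 23.7 and 67.8 TPM) and SLC3A2 (19.2, 16.5 and 31.5 TPM). SLC7A11 was below SLC7A5 in each induced library, and it was below SLC3A2 in replicates 1 and 2 and above it in replicate 3. In replicate 3 its TPM was close to that of SLC7A1 (65.7), whereas in replicate 2 it lay below SLC7A1, which had 35.0 TPM. Only SLC3A2 and SLC1A4, and SLC6A9 and SLC7A3, did not overlap among neighbours of the order by induced mean. SLC38A1 and SLC38A2 stayed near each other at 105, 112 and 110.0 TPM and 111, 122 and 104 TPM.

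Of the amino acid transporters outside the set, SLC6A15 and SLC7A2 rose after induction. Of 43 others, which cover lysosomal, brush border and glial carriers among them, 30 had enough counts, and their median log2 fold change was 0.08, or 0.06 without MYCN-induced replicate 3. Of the 30, edgeR called 2 higher and 0 lower, beside 1.02% and 2.38% of all genes. SLC6A15, a sodium-coupled carrier of branched-chain amino acids and proline, rose from 3.59, 3.65 and 4.32 CPM in the controls to 11.2, 13.0 and 15.3 CPM after induction (log2 fold change 1.77, SE 0.15, edgeR adjusted p = 0.00298, higher in 3 of 3 induced libraries). Over the 12 alternative settings for which it was fitted it passed the test in each, with adjusted p from 1.53e-24 to 0.0342.

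SLC7A2, another arginine and lysine carrier and a relative of SLC7A1, rose by less, and its induced libraries lay close together by CPM. It had 56.7, 52.6 and 48.9 CPM in the controls and 75.4, 76.4 and 75.8 CPM in the induced libraries (log2 fold change 0.53, SE 0.07, edgeR adjusted p = 0.0127, higher in 3 of 3). By TPM the induced libraries lay further apart, at 16.0, 17.7 and 13.6 in replicates 1, 2 and 3, beside controls of 12.4, 10.9 and 9.68. It was no longer called without control replicate 2 or without control replicate 3, and its adjusted p ran from 5.37e-07 to 0.105 over the settings. Without MYCN-induced replicate 3, the log2 fold changes of SLC6A15 and SLC7A2 were 1.66 and 0.53, close to those with it.

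The largest other differences among carriers with a mean of at least 1 CPM did not pass the edgeR test. SLC7A8, the light chain LAT2, had a log2 fold change of 0.60 (SE 0.17, edgeR adjusted p = 0.112), and 0.38 without MYCN-induced replicate 3. DESeq2 called it higher, with an adjusted p of 0.0219, where the range over its settings was 0.0219 to 0.380. The values were 0.40 (SE 0.14, adjusted p = 0.171) for SLC3A1, the heavy chain of the renal cystine carrier, and 0.31 (SE 0.19, adjusted p = 0.429) for SLC38A6 in the same edgeR fit. Without replicate 3 they were 0.28 for SLC3A1 and 0.06 for SLC38A6. At an unadjusted p under 0.05, 6 of the 30 were higher and 1 was lower, beside 8.13% and 10.6% of all genes. DESeq2 called 3 higher and 1 lower, beside 3.11% and 4.12% of all genes. Whether the members and the other carriers differ was not tested, since the members were picked for their change.

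**Figure D4:**
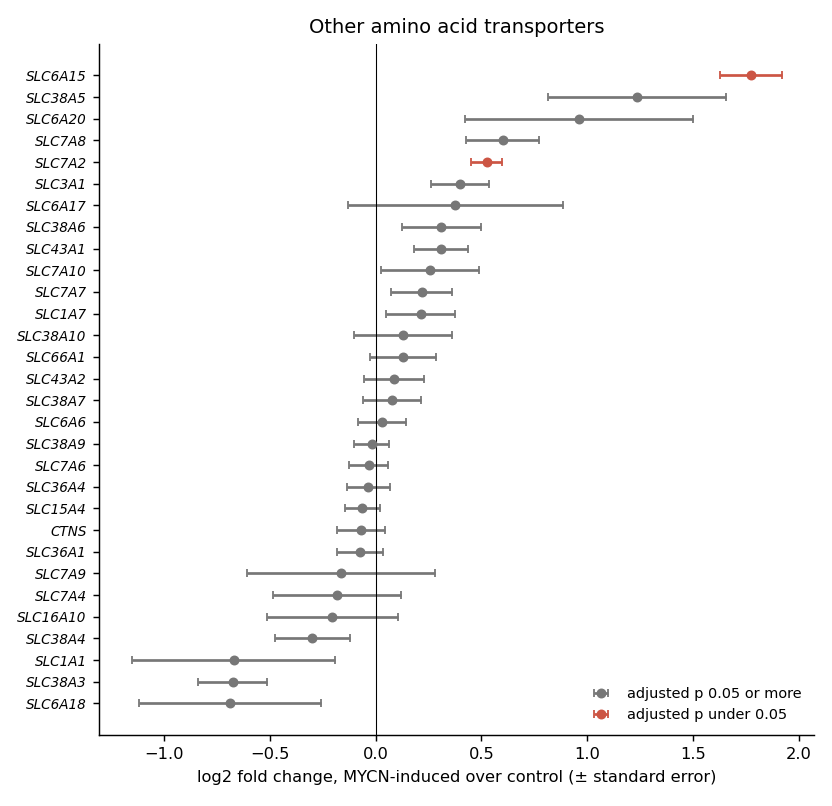
Each point is the log2 fold change of 1 of the 30 other amino acid transporters tested, MYCN-induced over control, with bars of 1 standard error. SLC6A15 at 1.77 and SLC7A2 at 0.53 (red) have an adjusted p under 0.05, and the grey points of the other 28 do not.

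Among genes of the amino acid response outside transport, ATF4 rose and EIF2AK3 fell after induction. This list holds 15 kinases, transcription factors and textbook targets of the response, all tested, with a median log2 fold change of 1.33, or 0.68 without MYCN-induced replicate 3. With all libraries edgeR called 1 of them higher and 1 lower, beside 1.02% and 2.38% of all genes. ATF4, the factor at its centre, rose from 189, 189 and 204 CPM in the controls to 319, 300.3 and 547 CPM (log2 fold change 1.0, SE 0.21, edgeR adjusted p = 0.0475). ATF4 also passed without MYCN-induced replicate 3, at a log2 fold change of 0.68, and in 7 of 12 alternatives in all, with adjusted p from 0.000323 to 0.212. EIF2AK3, the kinase PERK that senses protein folding stress, fell from 19.9, 18.9 and 17.8 CPM to 12.4, 13.8 and 11.8 CPM (log2 fold change -0.57, SE 0.10, edgeR adjusted p = 0.0241). Both calls were lost without any 1 of the control libraries and without MYCN-induced replicate 1. This list, like the other gene lists here, was chosen with earlier results of these data known. Calls from such lists are therefore a description.

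The other 13 genes of the list did not pass with all libraries, 11 of the 15 were higher at an unadjusted p under 0.05 (8.13% of all genes), and 7 were called higher without replicate 3 (3.68% of the genes tested). The list's median relative to the control mean was 0.81, 0.37 and 1.97 on the log2 scale in MYCN-induced replicates 1, 2 and 3, beside 0.81, 0.46 and 2.05 for the transporters. In 13 of its 15 genes the induced order was replicate 3, then 1, then 2, as in 22.7% of all genes. Whether this list and the transporters differ was not tested. This order is a description of 3 libraries, and its source was not tested.

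NRF2, encoded by NFE2L2, is the oxidative stress factor that also drives SLC7A11 in textbook accounts. Of 12 genes of its pathway, all tested, 3 were called higher and 0 lower by edgeR, beside 1.02% and 2.38% of all genes. At an unadjusted p under 0.05, 6 were higher and 0 lower, beside 8.13% and 10.6% of all genes. The median log2 fold change of the list was 0.49, or 0.20 without MYCN-induced replicate 3. NQO1, a quinone reductase, rose from 63.9, 66.6 and 70.4 CPM to 92.7, 122 and 135 CPM (log2 fold change 0.80, SE 0.13, edgeR adjusted p = 0.0218). TXNRD1, thioredoxin reductase, had a log2 fold change of 0.69 (SE 0.11, edgeR adjusted p = 0.0180), and GSR, glutathione reductase, of 0.44 (SE 0.07, edgeR adjusted p = 0.0206). All 3 were called without replicate 3 too, and none of them without control replicate 1, 2 or 3. The call of NQO1 was also lost without MYCN-induced replicate 2, and that of GSR without replicate 1. The list's median by induced library was 0.25, 0.12 and 0.95 on the log2 scale.

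The genes whose pattern was most like that of SLC7A11 were sought over the 6 libraries among 18533 genes with a mean of at least 1 CPM, leaving out SLC7A11-AS1, whose exons overlap those of SLC7A11. The measure was the root mean square difference between log2 CPM profiles, each taken relative to its control mean, and it describes these libraries without a test. CHAC1, an enzyme that breaks down glutathione, was the nearest of these at 0.29, with 10.9, 4.16 and 58.4 CPM after induction from controls of 1.88, 2.06 and 2.47 CPM. CRH, the corticotropin-releasing hormone, followed at 0.34 and PCK2, the mitochondrial phosphoenolpyruvate carboxykinase, at 0.37. The next were TNFRSF9 at 0.48, NUPR1 at 0.50, PTPRN at 0.57, STC2 at 0.59 and IGFN1 at 0.62. NUPR1 was near the floor, with 0.115, 0.135 and 0.197 CPM in the controls and 0.848, 0.343 and 8.56 CPM after induction. It thus reached the mean of 1 CPM only through MYCN-induced replicate 3. TNFRSF9 had controls of 0.544, 0.541 and 0.562 CPM and induced values of 1.59, 1.16 and 19.8 CPM.

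All 8 were highest in replicate 3, where the value of SLC7A11 carries most weight in this measure. Among the members, SLC6A9 came nearest to SLC7A11, at rank 30 with a difference of 0.94, followed by SLC7A5 at rank 50 and SLC7A1 at rank 60, and SLC6A15 was at rank 52. By Pearson correlation over the same libraries the order turned, with SLC7A1 at rank 16, SLC3A2 at 27, SLC7A5 at 221 and SLC6A9 at 404. SLC38A2 was at rank 6472 by the difference and at rank 1614 by Pearson correlation. Across the induced libraries MYCN spanned 1.11-fold and SLC6A15 1.37-fold, beside 8.94-fold for SLC7A11.

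**Figure D5:**
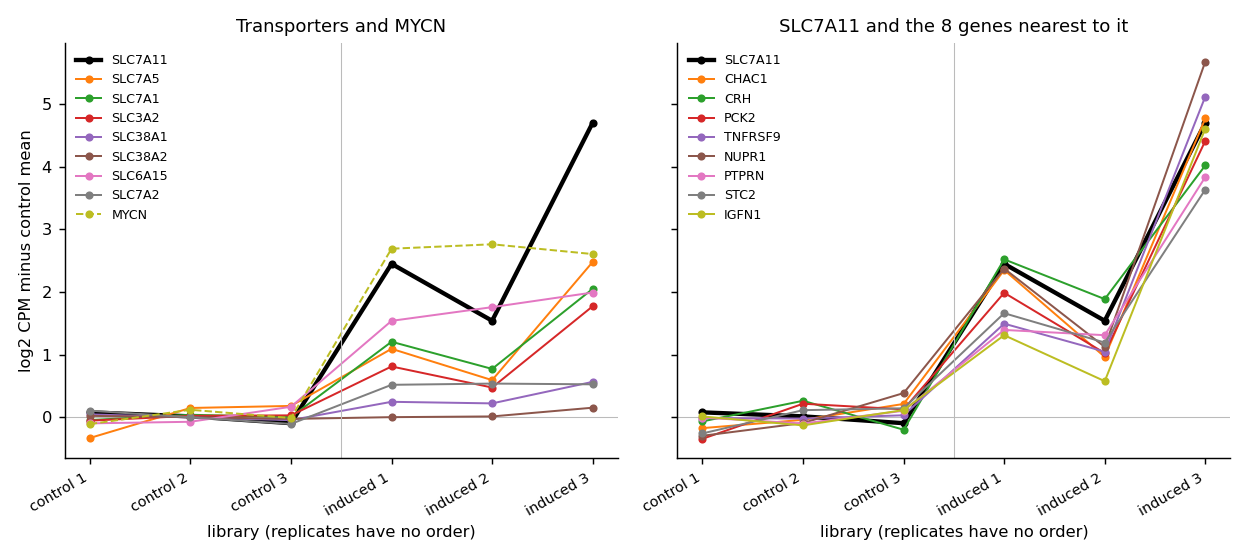
Log2 CPM minus the control mean in each library, for transporters and MYCN (left) and for SLC7A11 and the 8 genes with the most similar profile, SLC7A11-AS1 left out (right); lines join the values of 1 gene, and replicates have no order. SLC7A11 (thick black) lies at 2.45, 1.54 and 4.70 in MYCN-induced replicates 1, 2 and 3, where MYCN (dashed) lies at 2.69, 2.76 and 2.60.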

How the data were processed

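RNA of 3 control and 3 MYCN-induced SK-N-AS libraries was analysed. The values the authors deposited are estimated counts: read pairs on the exons of each gene, not normalized. The header of the deposited counts names featureCounts v1.6.4 on unique alignments, with pairs that overlap several genes shared in equal fractions and no strand option. The submitters' processing notes name STAR 2.7.1a and featureCounts 1.5.1, and the methods add a strand option that the header lacks. In each library, 31.9% to 33.4% of nonzero values were not whole. Of the 60651 identifiers, 60437 matched a symbol in GENCODE release 44 on GRCh38.

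Conditions and replicate numbers came from the sample titles. Rounded counts of the 29086 genes that reached 10 counts in 3 or more libraries entered edgeR 4.0.16 under R 4.3.3 (TMM normalization, quasi-likelihood test, no replicate block, Benjamini-Hochberg adjustment over all genes, threshold 0.05). The standard error is the size of a log2 fold change divided by the square root of its F statistic. CPM are TMM-normalized, log2 CPM carry a prior count of 2, and TPM use the union exon length in the deposited counts. The script was checked on simulated data. Counting error is small at these depths beside the spread between libraries (biological coefficient of variation 0.153). Replicates differed by more than sampling noise (chi-square per gene 12.2 to 150.6), so each was counted as 1 sample, and p-values measure the spread between these samples.

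The members and gene lists were chosen with earlier results of these data known. Genes named are the members, SLC7A11-AS1, MYCN, the listed transporters past the threshold or among the 5 largest changes at a mean of at least 1 CPM, list genes past the threshold, ATF4, and the 8 nearest profiles to SLC7A11, with SLC7A11-AS1 left out. Some marker genes are not reported here. Overlapping genes, light chains and marker genes are named beside the values they touch. Alternatives were DESeq2 1.42.0, scaling by library size only or by upper quartile, a count filter of 100 in every library or none, a replicate block, leaving out each library, thresholds of 0.01 and 0.1, adding the counts of SLC7A11-AS1 to SLC7A11, and Pearson correlation for the profiles.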

Additional observations from a re-analysis of the deposited data

How the results depend on the processing

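The log2 fold changes of the 9 members stayed above 0 in every setting, and none of the named genes turned direction in 346 alternative fits of 29 genes. The number of members called higher, 2 with all libraries, was 5 with DESeq2, 4 without a count filter, 0 with at least 100 counts in every library and 0 at a threshold of 0.01. It was 2 with library size only, with upper-quartile normalization and with the SLC7A11-AS1 counts added. Leaving out each library gave between 0 and 5, with 5 only without MYCN-induced replicate 3. The number of other transporters called higher, 2, was 1 at a threshold of 0.01, 3 with DESeq2 and between 1 and 2 without each library, and 1 was called lower with DESeq2 and at a threshold of 0.1, where 0 was called lower otherwise. Over all genes, 298 were called higher with all libraries, 18 without control replicate 2 and 1060 without MYCN-induced replicate 3. With the replicate block, 1 member (SLC7A1) was called. Deviations of same-numbered libraries correlated at 0.338, 0.016 and 0.099, and those of differently numbered ones at -0.321 to 0.112. The numbers were not taken as pairs, but these values do not settle whether they mark pairs. By Pearson correlation in place of the difference between profiles, 0 of the 8 genes nearest to SLC7A11 were shared. The cause of these changes was not tested. For low genes such as SLC6A9 the counts limit precision more than for the others.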
